A study of Rattus norvegicus with 99 samples.

Results

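The muscle actins Acta1 (skeletal muscle α-actin), Actc1 (cardiac muscle α-actin) and Acta2 (smooth muscle α-actin) were followed in whole heart tissue under pressure load. They are the 3 genes with these symbols among the 17337 genes of the deposited table, and each is present once. The tissue came from 33 male rats of the first generation of a cross between female Wistar Kyoto and male Lewis rats. Every animal gave 1 poly(A) RNA library from the LV (left ventricle), 1 from the RV (right ventricle) and 1 from the septum between them (Spt), 99 in all. A clip that does not narrow the vessel when it is placed, and loads the ventricle as the animal grows, was set around the pulmonary artery (PAB, load on the RV) or the aorta (AOB, load on the LV), and control animals were labelled sham. At the compensated stage, 7 weeks after surgery at an age of 11 weeks, there were 7 Sham-H, 7 PAB-H and 7 AOB-H animals. In failure there were 3 PAB-F animals with 2 sham animals (Sham-RF) at 27 weeks of age, 21 weeks after surgery, and 4 AOB-F animals with 3 sham animals (Sham-LF) at 30 weeks of age, 24 weeks after surgery. These ages and times are those of the sample labels, and the treatment protocol and the study's methods give others. The 21 groups of condition and chamber are bulk tissue, in which fewer cells of a type and less RNA per cell cannot be told apart.

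Actins form the thin filament on which myosin pulls. The striated muscle isoforms, skeletal and cardiac, are built into sarcomeres, and the rodent ventricle uses mainly the cardiac isoform after birth, while the skeletal isoform belongs to the fetal gene programme that is known to return in hypertrophy. Smooth muscle actin is the isoform of vessel walls and of activated fibroblasts. Serum response factor is a known activator of all of these genes through a DNA element called the CArG box.

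The promoters of the genes are shown because this element is the feature they are known for. Each run holds the 250 bases before the annotated start in RefSeq (rat build GRCr8, all on the minus strand), read in the direction of transcription. Capitals mark matches to the CArG box, CC and GG with 6 letters between them that are all A or T, or of which 1 is C or G.

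Acta1 (chr19:68784195-68784444): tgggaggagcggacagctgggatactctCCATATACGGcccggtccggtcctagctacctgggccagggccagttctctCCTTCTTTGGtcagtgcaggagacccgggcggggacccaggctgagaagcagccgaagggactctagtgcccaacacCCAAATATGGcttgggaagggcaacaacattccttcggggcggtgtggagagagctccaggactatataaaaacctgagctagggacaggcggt

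Actc1 (chr3:121271828-121272077): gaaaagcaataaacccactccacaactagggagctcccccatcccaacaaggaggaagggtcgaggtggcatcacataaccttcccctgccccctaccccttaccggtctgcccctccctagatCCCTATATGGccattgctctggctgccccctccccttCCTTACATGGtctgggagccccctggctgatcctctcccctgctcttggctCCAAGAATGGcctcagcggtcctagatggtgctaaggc

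Acta2 (chr1:241172504-241172753): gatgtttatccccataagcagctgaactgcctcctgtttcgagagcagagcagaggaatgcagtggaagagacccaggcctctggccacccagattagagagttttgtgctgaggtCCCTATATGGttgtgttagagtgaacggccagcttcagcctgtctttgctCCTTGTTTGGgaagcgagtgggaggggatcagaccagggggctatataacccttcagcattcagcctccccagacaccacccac

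Counted with the first transcribed base as 1, Acta1 held an unchanged match that begins at position -94 and matches with 1 change at -222 and -171. Actc1 held matches with 1 change at -126, -89 and -38 in this window, and an unchanged match at position 3, just after the annotated start. Acta2 held matches with 1 change at -134 and -84, and the match at -134 has the same letters as the Actc1 match at -126. An unchanged match was present in 1.64% and one with 1 change in 8.10% of all 33469 RefSeq promoters of 300 bases, searched on both strands. The TATATAA element lay at -31 in Acta1 and at -42 in Acta2, was not matched in Actc1, and was present in 3.93% of promoters. A match describes letters only.

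Cardiac actin was the most abundant muscle actin in all 99 libraries, skeletal actin ranked next and smooth muscle actin last. The levels are the deposited FPKM (fragments per kilobase of gene and per unit of depth, a level per length), so the genes can be compared within a library. The Actc1 level ran from 6802 to 12969 FPKM over the libraries with a median of 9656 FPKM. The Acta1 level ran from 237 to 3470 FPKM with a median of 940 FPKM, a 14.6-fold span against 1.91-fold for Actc1. The Acta2 level ran from 28.8 to 106 FPKM with a median of 45.6 FPKM, a 3.68-fold span. Behind these levels stood 155295 to 339975 reads of Actc1, 6789 to 85783 reads of Acta1 and 619 to 2295 reads of Acta2 per library, out of 12.1 to 24.2 M counted reads. Among the 3 genes Acta1 thus had the widest spread between libraries.

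**Figure D1:**
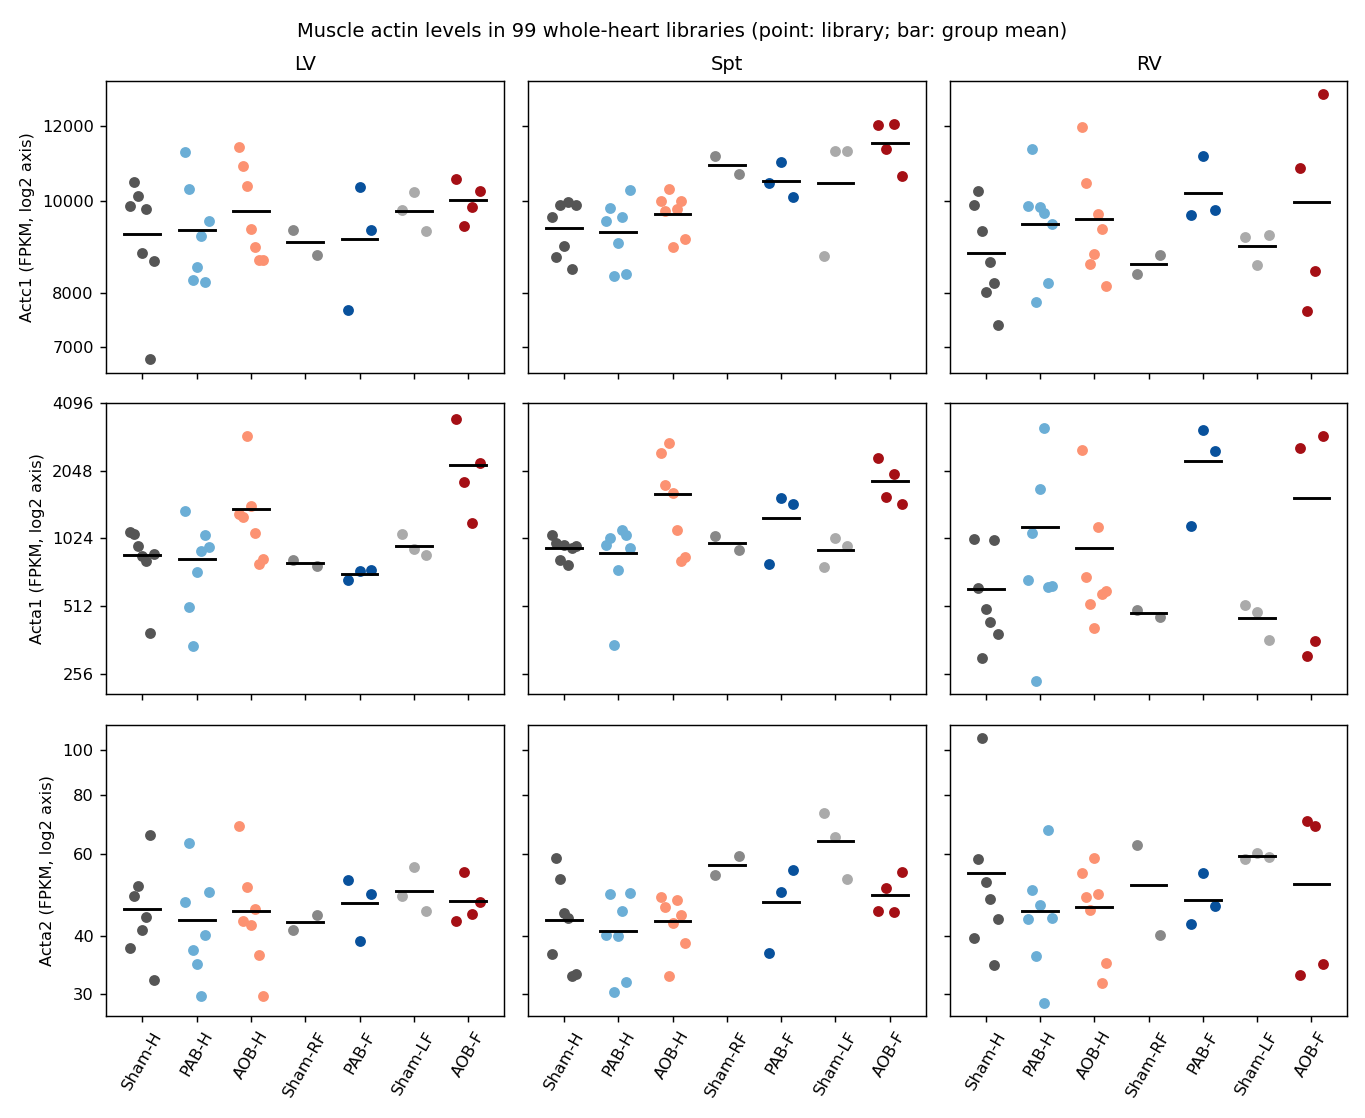
Level of Actc1 (top), Acta1 (middle) and Acta2 (bottom) in FPKM on log2 axes in LV, Spt and RV, for the 7 conditions; each point is 1 library and each bar the group mean. The 4 AOB-F LV libraries reach 1194 to 3470 FPKM of Acta1, above the 3 Sham-LF libraries, and the AOB-F RV libraries form a low pair and a high pair.

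Ordered by the group mean, Acta1 was lowest in Sham-LF RV at 454 ± 81.6 FPKM (SD, n = 3) and highest in PAB-F RV at 2257 ± 1001 FPKM (SD, n = 3), a 4.97-fold range. The shams of the RV took the lowest 3 places, and AOB-F Spt, AOB-F LV and PAB-F RV the highest 3. Of the 20 pairs of neighbours in this order, 19 overlapped, and the exception was PAB-F LV at 714 ± 39.2 FPKM (SD, n = 3) below Sham-RF LV at 794 ± 34.3 FPKM (SD, n = 2). All 20 neighbours overlapped for Actc1, whose group means lay between 8572 and 11522 FPKM, and all 20 for Acta2, whose group means lay between 40.9 and 63.7 FPKM.

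3 animals stood apart before any comparison. Their RV and LV libraries differed in the opposite direction to the other animals over the 50 genes that best separate the ventricles, namely those of Sham-H replicate 6, PAB-H replicate 2 and AOB-H replicate 1. The Acta1 comparisons at the compensated stage are therefore also given without these animals, and levels of single libraries include them. By their numbering in the labels the libraries form 3 series, and each compensated group has members in every series of its chamber. PAB-H replicate 2 and AOB-H replicate 1 have their ventricle libraries in series 1, and Sham-H replicate 6 in series 3. Values within these series include these animals. The failure groups lie within 1 series per chamber, together with their shams. That series is 2 for their ventricles and 3 for their septa, and series 1 holds no septum. Differences between septum and ventricles therefore cannot be fully told apart from differences between series.

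In the LV under aortic banding, Acta1 was higher in failure in every library. The 4 AOB-F animals had 3470, 1831, 1194 and 2222 FPKM of Acta1 in the LV. The 3 Sham-LF animals had 1074, 914 and 860 FPKM. The groups did not overlap, and the AOB-F mean was 2.30 times the sham mean. Such a gap above the shams was present in 5.85% of the 11703 genes tested. The log2 fold change was 1.20 ± 0.41 (SE) with an unadjusted p of 0.00606 and an adjusted p of 0.153 in edgeR's quasi-likelihood test, so the difference did not pass the threshold of 0.05. An unadjusted p under 0.05 was reached by 12.7% of the genes and an adjusted p under 0.05 by 0.837%. With each of the 7 animals left out in turn the log2 fold change ran from 0.89, without AOB-F replicate 1 (adjusted p = 0.646), to 1.40, without AOB-F replicate 3 (adjusted p = 0.0432), the lowest banded library and the 1 omission that passed the threshold (edgeR).

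At the compensated stage the LV of 7 AOB-H animals held 787 to 2930 FPKM of Acta1 with a median of 1280 FPKM. The LV of the 7 Sham-H animals held 388 to 1088 FPKM with a median of 869 FPKM. The groups overlapped, with 4 AOB-H libraries above every sham and AOB-H replicate 3 far above the rest. The log2 fold change was 0.67 ± 0.28 (SE), unadjusted p = 0.0214 and adjusted p = 0.956 (edgeR), where 4.54% of genes had an unadjusted p under 0.05. The estimate was 0.56 ± 0.28 without the 3 animals named above, and 0.27, 1.06 and 0.36 within library series 1, 2 and 3. Without AOB-H replicate 3 it was 0.37.

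The septum under aortic banding gave values of the same order. The 4 AOB-F septa had 2335, 1565, 1983 and 1459 FPKM of Acta1. The 3 Sham-LF septa had 760, 1024 and 948 FPKM. These groups did not overlap either, which was the case, in the higher direction, for 4.31% of 11624 genes. On the log2 scale the change was 0.99 ± 0.34 (SE), unadjusted p = 0.00672 and adjusted p = 0.189 (edgeR), beside 12.2% of genes with an unadjusted p and 0.232% with an adjusted p under 0.05. The AOB-H septa ranged from 815 over a median of 1624 to 2726 FPKM, and the Sham-H septa from 783 over a median of 949 to 1062 FPKM. Of the 7 AOB-H septa 5 lay above every sham, and the log2 fold change was 0.81 ± 0.23 (SE), unadjusted p = 0.00157 and adjusted p = 0.199 (edgeR), beside 15.9% of genes with an unadjusted p under 0.05. It was 0.69 ± 0.25 without the 3 animals, and 0.96 and 0.76 within library series 2 and 3. With each of 14 animals left out in turn it ran from 0.64 (adjusted p = 0.417) to 0.93, and the adjusted p of 0.0479 without AOB-H replicate 6, the lowest banded septum, was the 1 that passed (edgeR).

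In the RV under pulmonary artery banding, the failing animals had the highest mean level of Acta1 of all groups. The PAB-F animals had 1158, 3116 and 2497 FPKM in the RV. The Sham-RF animals had 494 and 457 FPKM. Each banded RV was above both shams, a pattern that 17% of 11734 genes showed in the higher direction in these small groups. This gave a log2 fold change of 2.24 ± 0.94 (SE), unadjusted p = 0.0238 and adjusted p = 0.545 (edgeR), with 8.37% of genes under an unadjusted p of 0.05 and 0% under an adjusted p of 0.05.

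At the compensated stage the PAB-H RV libraries ranged from 237 over a median of 667 to 3153 FPKM of Acta1. The Sham-H RV libraries ranged from 302 over a median of 498 to 1012 FPKM. Of the banded libraries 3 lay above the range of the shams, at 1085, 1694 and 3153 FPKM, 3 within it and 1 below it. The log2 fold change was 0.93 ± 0.51 (SE) with an unadjusted p of 0.0766 (edgeR), and 1.10 ± 0.52 without the 3 animals. Without PAB-H replicate 5, the highest library, it was 0.44. Within library series 1, 2 and 3 it was 0.10, 2.04 and -0.16, so it was largest in series 2. In series 3 the shams held 1006 FPKM (replicate 6, 1 of the 3 animals) and 386 FPKM, and the banded libraries 620 and 627 FPKM. Series 1 includes PAB-H replicate 2, also 1 of the 3 animals. Series values without these animals were not computed.

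The chamber opposite to the clip was examined next. In the LV of PAB-F animals Acta1 was 669, 732 and 740 FPKM. In the LV of Sham-RF animals it was 819 and 770 FPKM. The banded libraries were lower without overlap, as were those of 10.6% of genes, and the log2 fold change was -0.16 ± 0.47 (SE, edgeR). In the RV of AOB-F animals Acta1 was 2584, 306, 359 and 2914 FPKM, against 518, 482 and 362 FPKM in Sham-LF. Replicates 1 and 4 were above every sham and replicates 2 and 3 below every sham, so the log2 fold change of 1.77 ± 0.76 (SE, unadjusted p = 0.0272, adjusted p = 0.365, edgeR) averages a high and a low pair. An unadjusted p under 0.05 was reached by 12.9% of genes there. In AOB-H RV, Acta1 ranged from 411 over a median of 600 to 2538 FPKM, and the log2 fold change against Sham-H was 0.62 ± 0.51 (SE, edgeR), or 0.28 ± 0.51 without the 3 animals and 0.11 without AOB-H replicate 1 alone. Within library series 1, 2 and 3 it was 0.98, 0.76 and -0.24. Series 1 includes AOB-H replicate 1. In series 3 the shams held 1006 FPKM (replicate 6, 1 of the 3 animals) and 386 FPKM, and the banded libraries 582 and 600 FPKM.

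Under pulmonary artery banding the septum and the compensated LV showed small differences. The PAB-F septa held 786, 1552 and 1454 FPKM of Acta1 and the Sham-RF septa 1049 and 906 FPKM, with 2 banded septa above and 1 below both shams. The log2 fold change was 0.38 ± 0.40 (SE, edgeR). In PAB-H it was -0.06 ± 0.23 in the septum, and -0.06 ± 0.28 in the LV with -0.23, -0.41 and 0.67 within library series 1, 2 and 3. Without the 3 animals it was -0.10 in the septum and -0.09 in the LV. In LV series 3 the shams held 388 FPKM (replicate 6, 1 of these animals) and 869 FPKM, and the PAB-H libraries 1059 and 940 FPKM.

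The high and the low pair of AOB-F RV libraries also differed in other measures, and their part in the Acta1 difference was not tested. Summed over the 7 cardiomyocyte markers, replicates 1 and 4 had 45909 and 50376 CPM (counts scaled to a common library total), and replicates 2 and 3 had 71907 and 72586 CPM. Acta2 ran opposite to Acta1, with 33.0, 70.4, 68.7 and 34.9 FPKM in replicates 1 to 4. In the same animals' LV, Acta1 was also higher in replicates 1 and 4 than in replicates 2 and 3, whereas in the septum replicates 1 and 3 were the higher pair. The cardiac hormone gene Nppa did the same, with 17261, 3718, 2178 and 15923 CPM in the LV and 13958, 3161, 11381 and 1828 CPM in the septum of replicates 1 to 4. Whether the septum libraries of replicates 3 and 4 come from the animals they are labelled with was not tested, and an exchange between them would leave the AOB-F Spt group values as they are.

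Within a library, the ratio of 2 actins does not depend on how libraries are scaled to each other. The skeletal share, Acta1 in percent of the summed FPKM of Acta1 and Actc1, was 8.41 ± 1.5% (SD, n = 7) in Sham-H LV, 9.03 ± 1.15% in Sham-H Spt (SD, n = 7) and 6.38 ± 2.73% in Sham-H RV (SD, n = 7). Without Sham-H replicate 6 these shares were 8.92, 8.89 and 5.62%. In AOB-F LV the share was 24.7, 16.3, 10.8 and 17.8%, and in Sham-LF LV 9.89, 8.21 and 8.47%. In PAB-F RV it was 10.7, 21.8 and 20.3%, and in Sham-RF RV 5.57 and 4.95%. The lowest library was PAB-H RV replicate 3 with 2.95% and the highest AOB-F LV replicate 1 with 24.7%, so the cardiac isoform made up most of the striated actin mRNA in each library.

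**Figure D2:**
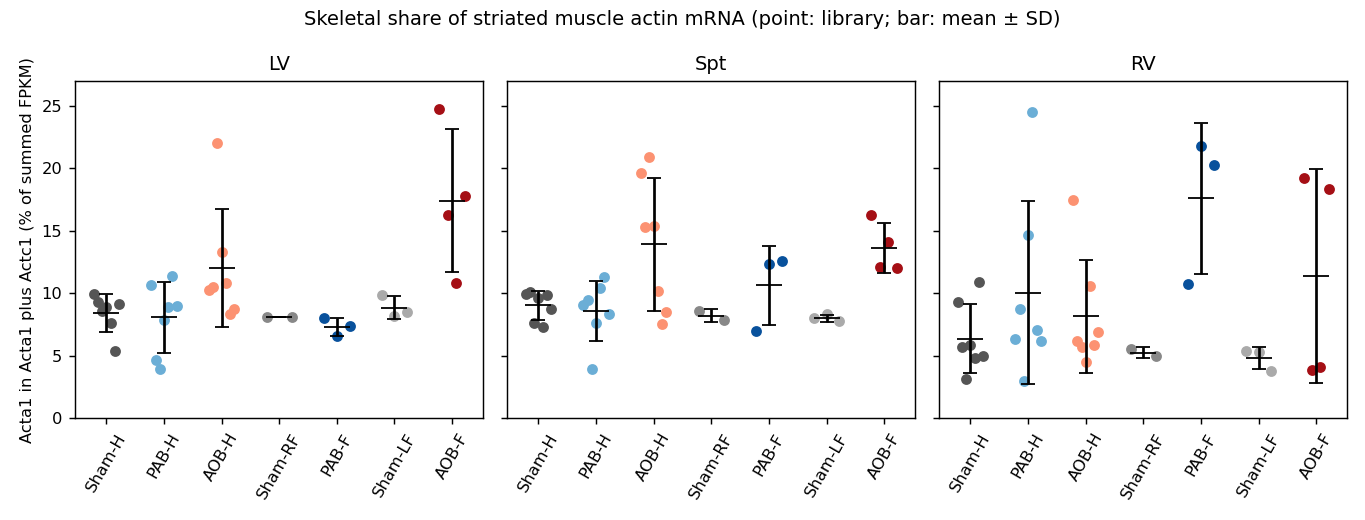
Acta1 in percent of the summed FPKM of Acta1 and Actc1 in LV, Spt and RV for the 7 conditions; points are libraries and bars the mean ± SD. AOB-F LV, PAB-H RV, AOB-H LV and PAB-F RV reach 24.7%, 24.5%, 22.0% and 21.8%. AOB-H Spt reaches 20.9% and AOB-F RV 19.3%. The shams stay at or under 10.9%, the value of Sham-H RV replicate 6, an animal with questioned labels.

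The log2 ratio of Acta1 to Actc1 was -2.30 ± 0.59 (SD, n = 4) in AOB-F LV and -3.37 ± 0.16 (SD, n = 3) in Sham-LF LV. The difference of 1.06 gave an exact two-sided permutation p of 0.0571 and an adjusted p of 0.315 over the 36 comparisons of 3 ratios in 12 contrasts. This test doubles the smaller tail, and 0.0571 is the smallest p it allows for 4 against 3 animals. The septum of the same animals gave a difference of 0.85 with the same p. In PAB-F RV the difference was 1.88, and its exact permutation p of 0.2 is the smallest that this doubled test allows for 3 against 2 animals. In AOB-H the difference was 0.52 in the LV (exact permutation p = 0.0280) and 0.62 in the septum (exact permutation p = 0.0437), with 5 of 7 libraries above every sham in each chamber and an adjusted p of 0.315 in both. Without the 3 animals these differences were 0.44 (exact permutation p = 0.0779) and 0.53 (exact permutation p = 0.102). None of the 36 ratio comparisons passed an adjusted p of 0.05. The ratio of Acta2 to Actc1 differed by -0.52 to 0.12 in the 12 contrasts, and no p was under 0.05 (the lowest exact permutation p was 0.114, in AOB-F Spt).

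**Figure D3:**
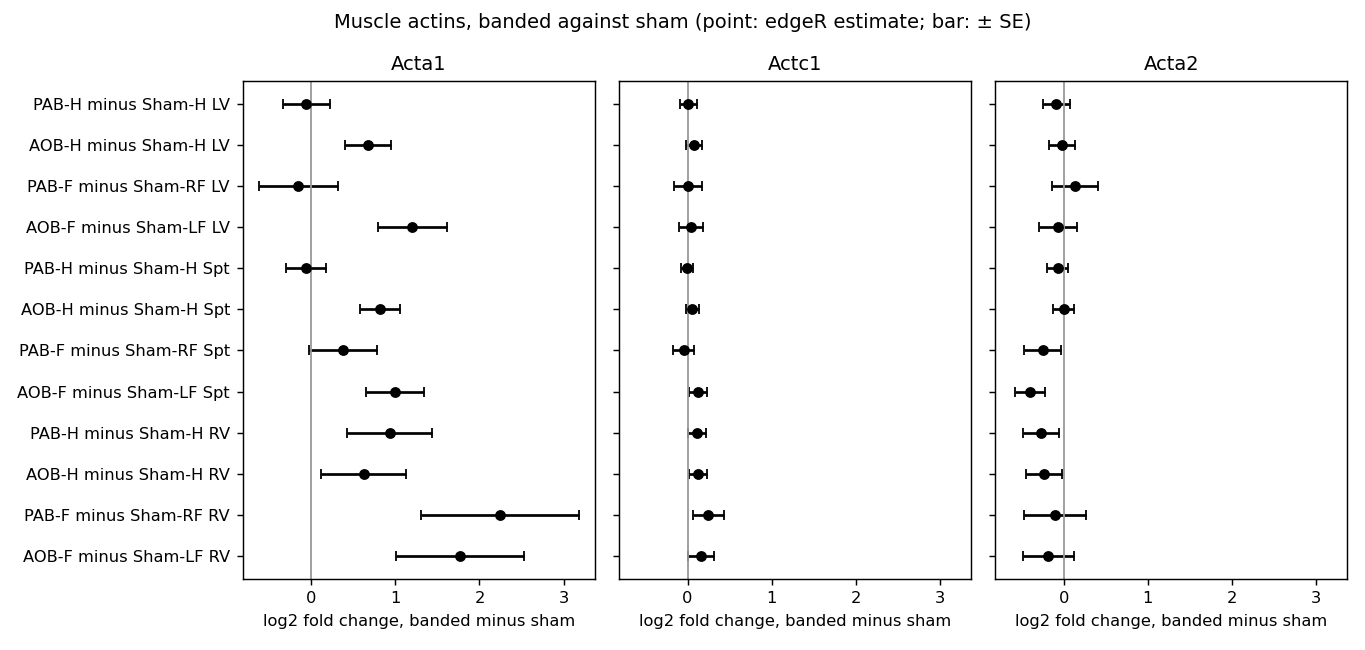
Log2 fold change of banded minus sham for Acta1, Actc1 and Acta2 in 12 comparisons; points are edgeR estimates and bars ± SE. Acta1 estimates reach 2.24 in PAB-F RV, whereas Actc1 estimates lie between -0.05 and 0.25 and Acta2 estimates between -0.40 and 0.13.

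Over the 12 comparisons of banded with sham tissue, 0 of the 3 actins passed an adjusted p of 0.05 in edgeR, and 0 did so in DESeq2. An unadjusted p under 0.05 was reached by Acta1 in 6 comparisons, by Acta2 in 1 and by Actc1 in 0. Of all genes tested, 0.837% were called in AOB-F LV, 0.232% in AOB-F Spt and 0% in the other 10 comparisons. These counts varied with the fit, most of all in PAB-F Spt, where 0 genes were called in the fit of 33 libraries but 792 in a fit of only the libraries compared. Sham-H serves as the control of both PAB-H and AOB-H, so those comparisons share animals.

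For Actc1, the main actin of the heart, banded and sham tissue differed by little. Its largest estimate was in PAB-F RV, where the libraries held 9656, 11156 and 9794 FPKM. The Sham-RF RV libraries held 8373 and 8772 FPKM. The groups did not overlap, as was the case for 17% of genes in this direction, and the log2 fold change was 0.25 ± 0.18 (SE, unadjusted p = 0.191, edgeR). In AOB-F LV the Actc1 level was 10562, 9401, 9848 and 10254 FPKM, against 9787, 10213 and 9294 FPKM in the shams. Those groups overlapped, and the log2 fold change was 0.04 ± 0.14 (SE, edgeR). The sum of Acta1 and Actc1 was 12196 ± 1380 FPKM (SD, n = 4) in AOB-F LV and 10714 ± 502 FPKM (SD, n = 3) in Sham-LF LV, and 12459 ± 1735 FPKM (SD, n = 3) in PAB-F RV and 9048 ± 255 FPKM (SD, n = 2) in Sham-RF RV.

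Acta2 differed most in the failing septum. The AOB-F septa held 45.2, 50.6, 44.9 and 54.8 FPKM. The Sham-LF septa held 73.3, 65.0 and 52.9 FPKM, so that 3 of the 4 banded septa lay under every sham. The log2 fold change was -0.40 ± 0.18 (SE), unadjusted p = 0.0345 and adjusted p = 0.356 (edgeR). The Sham-LF septa were themselves higher than the Sham-H septa, which ranged from 32.8 over a median of 43.8 to 58.6 FPKM. That difference was 0.57 ± 0.16 on the log2 scale, unadjusted p = 0.00131 and adjusted p = 0.0577 (edgeR), and its adjusted p was 0.0361 in DESeq2. In this comparison 17.9% of genes had an unadjusted p and 1.73% an adjusted p under 0.05.

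**Figure D4:**
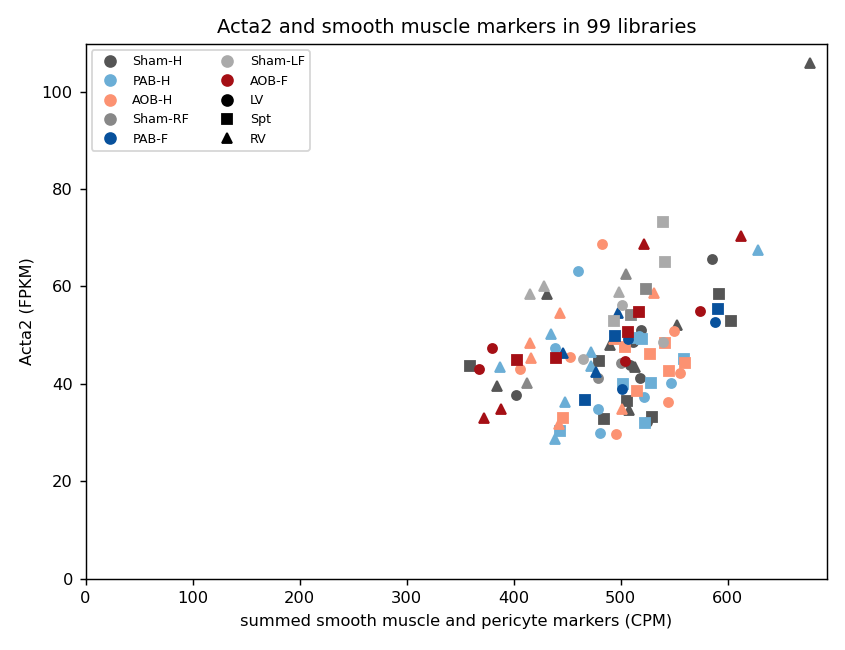
Acta2 in FPKM against the summed CPM of 8 smooth muscle and pericyte markers in the 99 libraries; colour gives the condition and shape the chamber. Sham-H RV replicate 3 is highest on both axes, with 106 FPKM of Acta2.

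Cell type marker lists were set beside the actins as summed CPM. Sham-H RV replicate 3, with 106 FPKM of Acta2 the highest library, also had the highest sum of the 8 smooth muscle and pericyte markers at 677 CPM. The 10 skeletal muscle markers summed to 6.00 to 13.5 CPM in AOB-F LV and to 5.34 to 7.79 CPM in Sham-LF LV, and to 7.93 to 8.86 CPM in PAB-F RV and 8.61 to 11.9 CPM in Sham-RF RV. Their highest sum was 374 CPM, in PAB-H LV replicate 4. The 7 cardiomyocyte markers summed to 37042 to 52059 CPM in AOB-F LV and to 54613 to 68591 CPM in Sham-LF LV, without overlap. They were likewise lower without overlap in AOB-F Spt, at 44942 to 57270 CPM against 63787 to 76850 CPM in Sham-LF Spt, and in PAB-F RV, at 53041 to 65359 CPM against 68981 to 71074 CPM in Sham-RF RV. Single genes lower without overlap numbered 703 of 11703 in AOB-F LV, 654 of 11624 in AOB-F Spt and 2211 of 11734 in PAB-F RV. A lower sum does not separate fewer cardiomyocytes from less RNA of the listed genes per cell. The part of these lower sums in the Acta1 differences was not tested. The 5 atrial markers, which include the load-responsive Nppa, summed to 2221 to 17280 CPM in AOB-F LV and to 611 to 853 CPM in Sham-LF LV. Without Nppa, a choice made after the values were seen, the other 4 atrial markers summed to 1846 CPM in PAB-F RV replicate 3 against 41.9 and 16.1 CPM in replicates 1 and 2, whereas Acta1 was high in replicates 2 and 3, and the part of these markers in the Acta1 level was not tested. Among other libraries, PAB-H RV replicate 1 had 1814 CPM, Sham-H LV replicate 6 had 1741 CPM and AOB-H RV replicate 3 had 1723 CPM. Sham-LF RV replicate 3 had 939 CPM, and AOB-F RV replicate 2, of the low Acta1 pair, 810 CPM. Across the 99 libraries the Pearson correlation of log2 CPM was 0.66 between Acta1 and Actc1, -0.20 between Acta1 and Acta2 and 0.07 between Actc1 and Acta2, a description over libraries that share animals and chambers. Described in the same way, Acta1 had a correlation of -0.69 with the summed cardiomyocyte markers, 0.54 with the macrophage and -0.01 with the skeletal muscle markers. With the 5 atrial markers it was 0.66, a sum that includes Nppa, and no correlation without Nppa is given. Of the libraries named above for high sums without Nppa, PAB-F RV replicate 3 held 2497 FPKM of Acta1. PAB-H RV replicate 1, Sham-H LV replicate 6, AOB-H RV replicate 3, Sham-LF RV replicate 3 and AOB-F RV replicate 2 held 667, 388, 521, 362 and 306 FPKM.

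Since each animal gave all chambers, Acta1 could be compared within the animal. In Sham-H the LV held more Acta1 than the RV in 6 of 7 animals, with replicate 6, one of the animals with questioned labels, as the exception. The same held in 3 of 3 Sham-LF and 2 of 2 Sham-RF animals, in which the RV held 0.42 to 0.60 times the LV level. In 3 of 3 PAB-F animals the order was the other way, and the RV held 1.73, 4.25 and 3.37 times the LV level. In PAB-H the RV was higher in 3 of 7 animals, in AOB-H in 2 of 7 and in AOB-F in 1 of 4. Without the animals with questioned labels the RV was higher in 0 of 6 Sham-H, 2 of 6 PAB-H and 1 of 6 AOB-H animals. Those animals were chosen by a reversed RV and LV difference in these same data. Their RV held 2.59 (Sham-H), 2.14 (PAB-H) and 1.94 (AOB-H) times the LV level of Acta1. The lower counts without them thus follow in part from the choice.

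**Figure D5:**
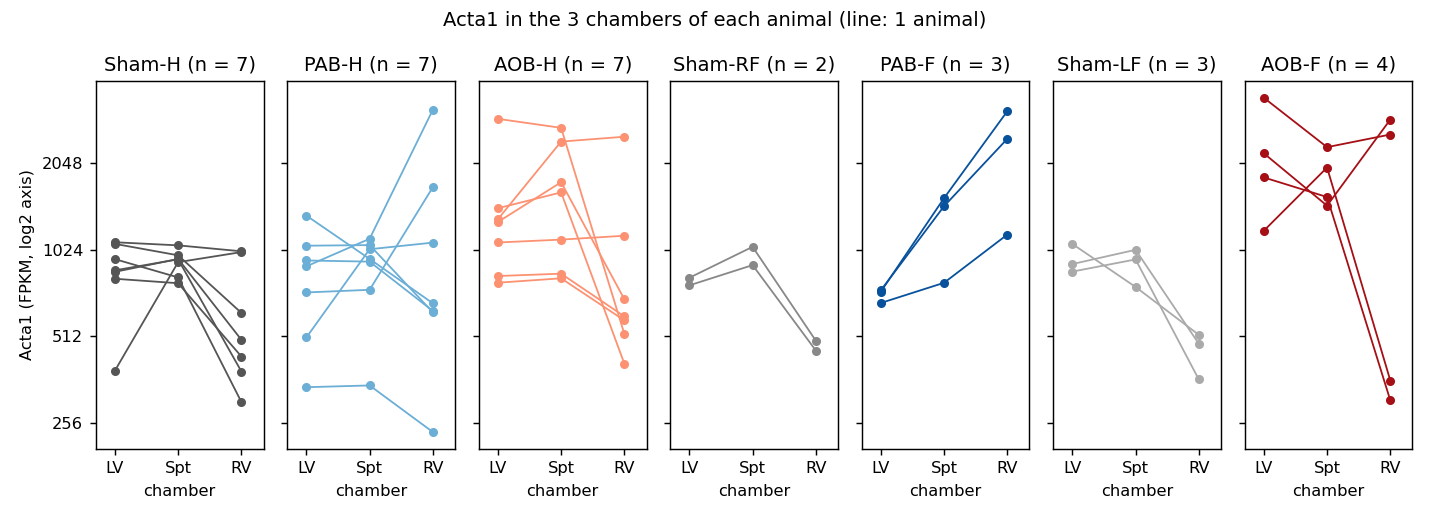
Acta1 in FPKM on a log2 axis in LV, Spt and RV, with 1 line per animal and 1 panel per condition. The RV is the lowest chamber in the 5 older shams and the highest in the 3 PAB-F animals. In these animals the septa are in another library series than the ventricles.

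The response of the loaded ventricle was tested against that of the other ventricle in 1 fit of all libraries. This fit held no term for the animal, although both ventricles come from the same animals. For PAB-F, the RV minus LV difference of the responses of Acta1 was 2.41 on the log2 scale ± 0.91 (SE), unadjusted p = 0.01 and adjusted p = 0.988 (edgeR), where 4.89% of genes had an unadjusted p under 0.05. For PAB-H it was 0.98 ± 0.53, for AOB-F LV minus RV -0.56 ± 0.75 and for AOB-H LV minus RV 0.06 ± 0.53 (SE, edgeR). An adjusted p under 0.05 was reached by 0 of the 3 actins and by 0% of genes in each of these 4 tests, and an unadjusted p under 0.05 by Acta1 in PAB-F alone among the actins (edgeR). With the animal as a replicate block, 0 genes were called in each of them. Over the alternatives, which include this block, the Acta1 estimate for PAB-F ran from 2.28 to 2.40. The responses in failure were also compared with those at the compensated stage, and Acta1 differed by 0.53 ± 0.48 in the LV, 0.18 ± 0.41 in the septum and 1.15 ± 0.89 in the RV for AOB, and by -0.10 ± 0.55, 0.44 ± 0.47 and 1.31 ± 1.02 for PAB (log2, SE, edgeR). In these 6 tests too, 0 of the 3 actins and 0% of genes were called, and 0 of the actins had an unadjusted p under 0.05 (edgeR). A higher response in failure was therefore not shown for any of the 3 genes.

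Without load, the chambers of Sham-H were compared in the fit of 99 libraries. Acta1 was lower in the RV than in the LV by a log2 fold change of -0.51 ± 0.37 and lower than in the septum by -0.61 ± 0.37 (SE, edgeR), and without the 3 animals these values were -0.79 and -0.76. With the animal as a replicate block they were -0.59 and -0.67 (unadjusted p = 0.0665 and 0.0331, edgeR), and no adjusted p passed 0.05. Acta2 was higher in the RV than in the septum by 0.34 ± 0.18 (SE, unadjusted p = 0.0593, edgeR). Septa and ventricles lay partly in different library series, so the comparisons with the septum cannot be fully told apart from series differences. In RV minus LV, Spt minus LV and RV minus Spt, 0 of the 3 actins were called and 0 had an unadjusted p under 0.05 (edgeR), beside 0%, 0.0923% and 0.772% of genes called. Without the 3 animals 149, 29 and 237 genes were called in place of 0, 11 and 92, and Acta1 had an unadjusted p of 0.0447 in RV minus LV and 0.0542 in RV minus Spt (adjusted p = 0.328 and 0.386, edgeR). The 3 animals were set apart by their RV and LV difference in these same data. Leaving them out therefore favours a larger ventricle difference by selection, and the values without them are no independent support for one. Older and young shams differed in Acta1 by -0.42 to 0.13 and in Actc1 by -0.03 to 0.21 over 6 comparisons on the log2 scale, with 0 calls. The share of all genes called was 0.0256% in the LV, 0% in the septum and 0% in the RV for Sham-RF, and 0.00854% in the LV and 0.0682% in the RV for Sham-LF. In the last of these the 8 genes called became 829 with library series as a covariate and 0 within series 2.

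Genes that act on the muscle actins were read in the same fits. Of the 11 tested genes for sarcomeric actin binding and filament length, 1 rose and 1 fell in AOB-F LV, where 0.837% of all genes were called, with a list median of 0.05 on the log2 scale beside 0.01 over all genes. Xirp2, an actin-binding protein of the intercalated disc, rose by 1.74 ± 0.39 (SE, adjusted p = 0.0338, edgeR). Tmod4, a cap of the pointed filament end, fell by 1.26 ± 0.28 (SE, adjusted p = 0.0338, edgeR). Both also passed in AOB-F Spt, where 0.232% of all genes were called and Xirp2 rose by 1.53 ± 0.33 (adjusted p = 0.0411) and Tmod4 fell by 1.10 ± 0.25 (adjusted p = 0.0483, edgeR). In PAB-F RV the Xirp2 estimate was 1.82 ± 0.66 and that of Cfl2, which severs filaments, 0.49 ± 0.18, with an adjusted p of 0.524 for both (edgeR).

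The other actins and the 7 tested of 13 listed regulators of the actin genes gave no calls in any of the 12 comparisons. The remaining listed regulators had no row under the symbols searched and received no value. Of the 3 other actins, the cytoplasmic Actg1 and the enteric smooth muscle actin Actg2 had log2 fold changes of -0.11 ± 0.13 and -0.26 ± 0.47 in AOB-F LV, and the cytoplasmic Actb and Actg1 had -0.20 ± 0.19 and -0.15 ± 0.19 in PAB-F RV (SE, edgeR). Actg2 had -0.91 ± 0.38 in AOB-F Spt (SE, edgeR). Among the 7 tested regulators, Tead1, a transcription factor, had 1.77 ± 0.91 and Gata4, a cardiac transcription factor, 0.30 ± 0.21 in PAB-F RV (SE, edgeR), and the list medians were 0.02 in AOB-F LV and 0.30 in PAB-F RV beside 0.01 and 0.00 over all genes. The 8 genes of actin folding gave 0 calls, with medians of -0.08 in AOB-F LV and 0.03 in PAB-F RV.

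The contractile genes of smooth muscle, which share the cell type of Acta2, gave 0 calls among 11 genes, and their median was 0.00 in AOB-F LV and -0.21 in AOB-F Spt, where Tagln, an actin-binding protein of smooth muscle, had -0.49 ± 0.20 (SE, edgeR). Of the 8 genes of myofibroblasts and matrix, 1 rose in AOB-F LV, where 0.837% of all genes were called, with a median of 0.79, and all 8 estimates were above 0. Postn, a matrix protein of activated fibroblasts, rose there by 3.42 ± 0.80 (SE, adjusted p = 0.0352, edgeR). Acta2, often used as a marker of such cells, had a log2 fold change of -0.07 ± 0.23 in the same comparison (SE, edgeR). The 8 myofibroblast and matrix estimates were also all above 0 in AOB-F Spt and AOB-F RV, with medians of 0.60 and 0.44.

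The genes whose group means ran most like those of Acta1 over the 21 groups were Cnksr3 (Pearson r = 0.96), Slc25a26 (0.96), Ptprt (0.94), Ankrd23 (0.93) and Nrap (0.93). Over the 99 libraries they were Ptprt (0.92), Sypl2 (0.88), Ankrd23 (0.87), Akip1 (0.86) and Tceal7 (0.86), so Ptprt and Ankrd23 were in both sets. For Actc1 the groups gave Nicn1 (0.88), Pla2g7 (0.87), Hspb6 (0.86), Hspb7 (0.85) and Ngrn (0.85), and the libraries gave Dnpep (0.82), Smyd2 (0.82), Hspb7 (0.81), Hspb6 (0.80) and Pla2g7 (0.80). For Acta2 the groups gave Tagln (0.89), Gnas (0.87), Med19 (0.87), Tyw5 (0.85) and Hist3h2a (0.84), and the libraries gave Tagln (0.93), Actg2 (0.86), Cnn1 (0.84), Lmod1 (0.77) and Csrp1 (0.69). These values describe likeness of log2 CPM among 10426 genes with a mean of at least 1 CPM, over libraries that share animals. For Acta2 the leading genes over libraries are known genes of smooth muscle, and of its 5 leading genes over the groups only Tagln was also among the 5 over the libraries.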

How the data were processed

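Poly(A) RNA libraries (75-base single-end reads) were processed by the authors with Trim Galore, STAR and featureCounts. DESeq2 was used by them for size factors and, per the study's methods, for differential expression. The deposited table gives, per the file headers, raw counts, normalized counts and FPKM per gene. From the values, the deposited normalized counts are a signal, the counts divided by 1 factor per library, and the deposited FPKM are these divided by 1 constant per gene. Reads shared between genes were not assigned, per the study's methods, and strand was not stated. RefSeq lists 3 Acta1 and 1 Actc1 pseudogenes, of which 0 are in the table, so reads of near-identical copies are uncertain. The build of the files is an older rat build than GRCr8, and coordinates are credited to RefSeq GRCr8.

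Levels are the deposited FPKM. Counts were tested with edgeR 4.0.16 (R 4.3.3; TMM, filterByExpr, quasi-likelihood) in 1 fit per chamber with 33 libraries, and in 1 fit of 99 libraries between chambers, with Benjamini-Hochberg adjustment over all genes and a threshold of 0.05. The fits and the exact permutation test were checked on simulated data. Ratios within a library were compared by exact two-sided permutation tests (SciPy 1.17.1), adjusted over 36 comparisons. Alternatives were DESeq2 1.42.0, no filter on low counts, all 99 libraries in 1 fit, only the libraries compared, library series as a covariate or alone, a replicate block, each replicate left out and 3 animals left out. Leaving out replicates in the comparisons of stage, age, chamber and ventricle was added after seeing the data. Animals are the replicates. Libraries of 1 animal share that animal by its label, and deviations of its LV and RV libraries from their group means correlated with a median r of 0.53. Total counts were 12.1 to 24.2 M per library (median 17.4 M).

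The 3 genes, the lists and the alternatives were chosen with earlier results of these data known. Named genes are the actins, list members called at an adjusted p under 0.05 or otherwise up to 2 with the lowest p, and the 5 most alike genes per actin. The RV libraries are named left ventricle in 1 label field, and the title and source name were followed. Listed genes without a row in the table received no value. The motif search used the 300-base RefSeq promoters.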

Additional observations from a re-analysis of the deposited data

Results flagged for a closer look

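In 48 groups of 4 to 7 libraries and measures, 5 values lay farther from the rest of their group than Dixon's test allows at 95%, where chance gives about 1 in 20. AOB-H LV replicate 3 held 2930 FPKM of Acta1, against 1430 FPKM in the next library, and its skeletal share of striated actin was 22.0% against 13.3%. AOB-H RV replicate 1 held 2538 FPKM of Acta1 against 1147 FPKM in the next library. Sham-H LV replicate 6 held 388 FPKM of Acta1, under the next lowest value of 812 FPKM. The last 2 libraries belong to animals whose ventricles differed in the opposite direction to the other animals. Sham-H RV replicate 3 held 106 FPKM of Acta2 against 58.5 FPKM in the next library.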

How the results depend on the processing

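Over 133 results, 2065 alternative values were computed. Of these, 2036 kept their side of the threshold (counts within 1.5 times) without a counted change of direction. A further 18 changed direction, 9 came to pass the threshold, 0 ceased to pass it and 2 counts moved. No actin or ratio comparison passed the threshold in the main setting, so none could cease to pass it. A change of direction was counted only where either value exceeded its own standard error. Another 134 sign changes lay within it and are not among the 18, so the 2036 values include sign changes. The causes were not tested.

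Within library series 1, the log2 fold change of Acta2 was 0.35 in PAB-H LV, 0.39 in AOB-H LV and 0.067 in AOB-H RV, and the ratio of Acta1 to Acta2 differed by -0.087 in AOB-H LV. Within series 2, Actc1 gave -0.14 in PAB-H LV, Acta2 0.27 in AOB-H Spt, and the ratio of Acta2 to Actc1 0.25 there. Series 3 includes Sham-H replicate 6, an animal with questioned labels. Within series 3, Acta1 gave 0.67 in PAB-H LV, -0.16 in PAB-H RV and -0.24 in AOB-H RV, and Acta2 0.51 in PAB-H RV. The ratio of Acta1 to Actc1 then differed by 0.57 in PAB-H LV and -0.18 in PAB-H RV, that of Acta2 to Actc1 by 0.30 and that of Acta1 to Acta2 by -0.48 in PAB-H RV.

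Same-numbered banded and sham libraries deviated together in part (r from -0.44 to 0.88, over 0.1 for 34 of 57 pairs, with a median r of 0.37 to 0.51 in the compensated LV and RV), but with 3 or more pairs not every pair exceeded 0.1 in any comparison, so the numbers were not taken to pair them. With the number as a replicate block, Acta1 in AOB-F Spt was 1.09 (adjusted p = 0.0244), Acta2 in PAB-F Spt -0.39 (adjusted p = 0.00382), Actc1 in AOB-F RV -0.025 and Acta1 in AOB-F RV 0.49 (edgeR). In DESeq2, Acta2 in Sham-LF against Sham-H Spt was 0.57 (adjusted p = 0.0361), and 2 myofibroblast and matrix genes were called in AOB-F LV and 1 in AOB-F Spt.

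With 1 replicate left out, Acta1 ranged from 0.89 to 1.40 in AOB-F LV (adjusted p 0.0432 to 0.646, edgeR) and from 0.64 to 0.93 in AOB-H Spt (0.0479 to 0.417). Acta2 ranged from 0.46 to 0.69 in Sham-LF against Sham-H Spt (0.0165 to 0.422), under 0.05 without Sham-H replicate 2, 3 or 5 or Sham-LF replicate 3, and from -0.32 to 0.011 in AOB-H RV, above 0 without Sham-H replicate 3. Actc1 in AOB-F RV ranged from -0.00059 to 0.25.

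Genes called in AOB-F LV numbered 98, but 247 in DESeq2, 366 with library series as a covariate and 0 with only the libraries compared or the replicate block. In AOB-F Spt they numbered 27, but 144 in DESeq2, 176 with the replicate block, 45 without the filter, 11 within series 3, 1 in the fit of 99 libraries and 0 with only the libraries compared, and in Sham-LF against Sham-H Spt 201, but 409 in DESeq2 and 56 without the 3 animals. PAB-F Spt went from 0 to 792 with only the libraries compared and 1545 with the replicate block, AOB-F RV from 0 to 76 with series as a covariate and 17 in the fit of 99 libraries, and Sham-LF against Sham-H RV from 8 to 829 with series as a covariate. Each actin had at least 619 reads per library, and the failure groups held 2 to 4 animals.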
